A study of Homo sapiens with 4 samples.

Results

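The Wnt pathway was examined with and without expression of FBP1 in a pair of established human lines, MDA-MB231 and Hs578T, both labelled basal-like breast cancer. The 52 genes were listed by name and grouped by role into 12 ligands, 14 receptors, 9 secreted antagonists and 17 effectors. Of these, 51 of the 18417 genes on the arrays could be read, since TCF7 had no probe set annotated to a single gene. The 4 groups were MDA-MB231 cells expressing FBP1, MDA-MB231 control cells, Hs578T cells expressing FBP1 and Hs578T control cells, with 1 array each. All were grown in medium with serum and harvested in log-phase growth. FBP1, fructose-1,6-bisphosphatase, is an enzyme of gluconeogenesis. The FBP1 cells were selected stable clones. The sources used here do not give whether an array held 1 clone or a mixture, or what the control cells carried.

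Wnt proteins are secreted lipid-modified ligands that bind Frizzled receptors. Together with the co-receptors LRP5 and LRP6 they keep beta-catenin from a destruction complex built on APC and axin, so that it can act with TCF/LEF factors on target genes. Other Wnt proteins signal through Frizzled, ROR and RYK receptors without beta-catenin. DKK proteins block the LRP co-receptors, while SFRP proteins and WIF1 bind Wnt ligands outside the cell. In breast cancer, silencing of SFRP and DKK genes by promoter methylation has been described, and basal-like tumours often carry signs of Wnt activity.

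Values are given on the log2 scale. A level is the deposited log2 expression value of the gene's probe set in 1 array, and a change is the level with FBP1 minus the level in the control of the same line. Levels of different probe sets depend on the probes and were compared along a gene only. With 1 array per group no change within a line could be tested, no standard deviation exists, and the 4 arrays limit the precision of every value. Genes were therefore counted by size, at 1.5-fold (0.585 log2). The 25th percentile of all probe set means, 6.16 log2, was used as a mark for dim genes, because the table holds no detection calls.

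FBP1 itself was at 13.07 log2 with FBP1, against 9.83 in the control, in MDA-MB231, and at 13.35 with FBP1, against 6.35 in the control, in Hs578T. The arrays had medians of 7.83 to 7.86 log2, and the median change of all genes was 0.00 in MDA-MB231 and 0.03 in Hs578T. ESR1 and PGR, the hormone receptor genes of luminal cells, lay at 5.61 to 6.80 log2 in the 4 arrays. Of the 9 luminal markers read, only PGR had a mean below the 25th percentile. The luminal keratin gene KRT18 lay at 12.33 to 12.71 log2 in the 4 arrays. KRT8 and KRT19 lay at 13.02 and 11.99 in MDA-MB231 with FBP1, and at 9.80 and 8.23 in Hs578T with FBP1. The basal keratin gene KRT5 lay at 6.80 to 6.93 log2, and EGFR, which basal-like tumours often express, lay at 10.63 to 11.05 log2. The other basal markers measured, KRT14 and CDH3, lay at 8.45 to 9.62 and 6.94 to 8.18 log2, and 4 of 8 were measured. As levels of different probe sets, these values do not rank luminal against basal expression. Of 4 measured leukocyte markers, 2, PTPRC and CD3E, lay below the 25th percentile in all 4 arrays. The other leukocyte markers, CD14 and ITGAM, lay above it in each array, at 7.41 to 8.30 and 6.69 to 6.91 log2.

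The members with the largest decrease and the largest increase were both secreted antagonists in Hs578T, SFRP2 and DKK1. Their promoters are shown because opposite changes fell on 2 antagonists of the same pathway. The sequences are from RefSeq, run from 250 bases before to 50 bases after the gene's start, and are written 5′ to 3′ on the gene's strand. SFRP2 lies on the minus strand at chr4:153789034-153789333 and DKK1 on the plus strand at chr10:52314031-52314330 (GRCh38.p14). Capitals mark the letters CTTTGAA or CTTTGAT, a core of the TCF/LEF site, searched on both strands.
SFRP2: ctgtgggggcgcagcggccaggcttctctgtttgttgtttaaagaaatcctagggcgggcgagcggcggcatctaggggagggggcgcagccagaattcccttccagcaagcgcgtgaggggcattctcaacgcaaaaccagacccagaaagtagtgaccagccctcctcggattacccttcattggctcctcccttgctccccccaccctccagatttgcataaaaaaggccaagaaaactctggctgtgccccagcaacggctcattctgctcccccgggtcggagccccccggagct
DKK1: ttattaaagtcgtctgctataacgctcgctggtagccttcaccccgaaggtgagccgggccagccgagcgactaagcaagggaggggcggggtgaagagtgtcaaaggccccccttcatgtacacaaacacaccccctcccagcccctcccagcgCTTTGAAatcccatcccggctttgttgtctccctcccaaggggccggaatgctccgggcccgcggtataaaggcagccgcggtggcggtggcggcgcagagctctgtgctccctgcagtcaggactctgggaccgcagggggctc

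The DKK1 promoter held 1 match, CTTTGAA on the gene's strand, 95 to 89 bases before the start, and the SFRP2 promoter held none in these 300 bases. Promoter sequences were matched for 34 of the 52 genes. The DKK1 match was the only one among them (2.94%), and 6.98% of 27305 RefSeq promoters of the same length held either word. A match is a run of letters and does not show binding. CpG pairs, the sites of DNA methylation, numbered 15 in the SFRP2 promoter and 20 in that of DKK1. Over the 34 promoters the median was 29, from 5 in RNF43 to 53 in WNT9A, against a median of 14 over all promoters.

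**Figure D1:**
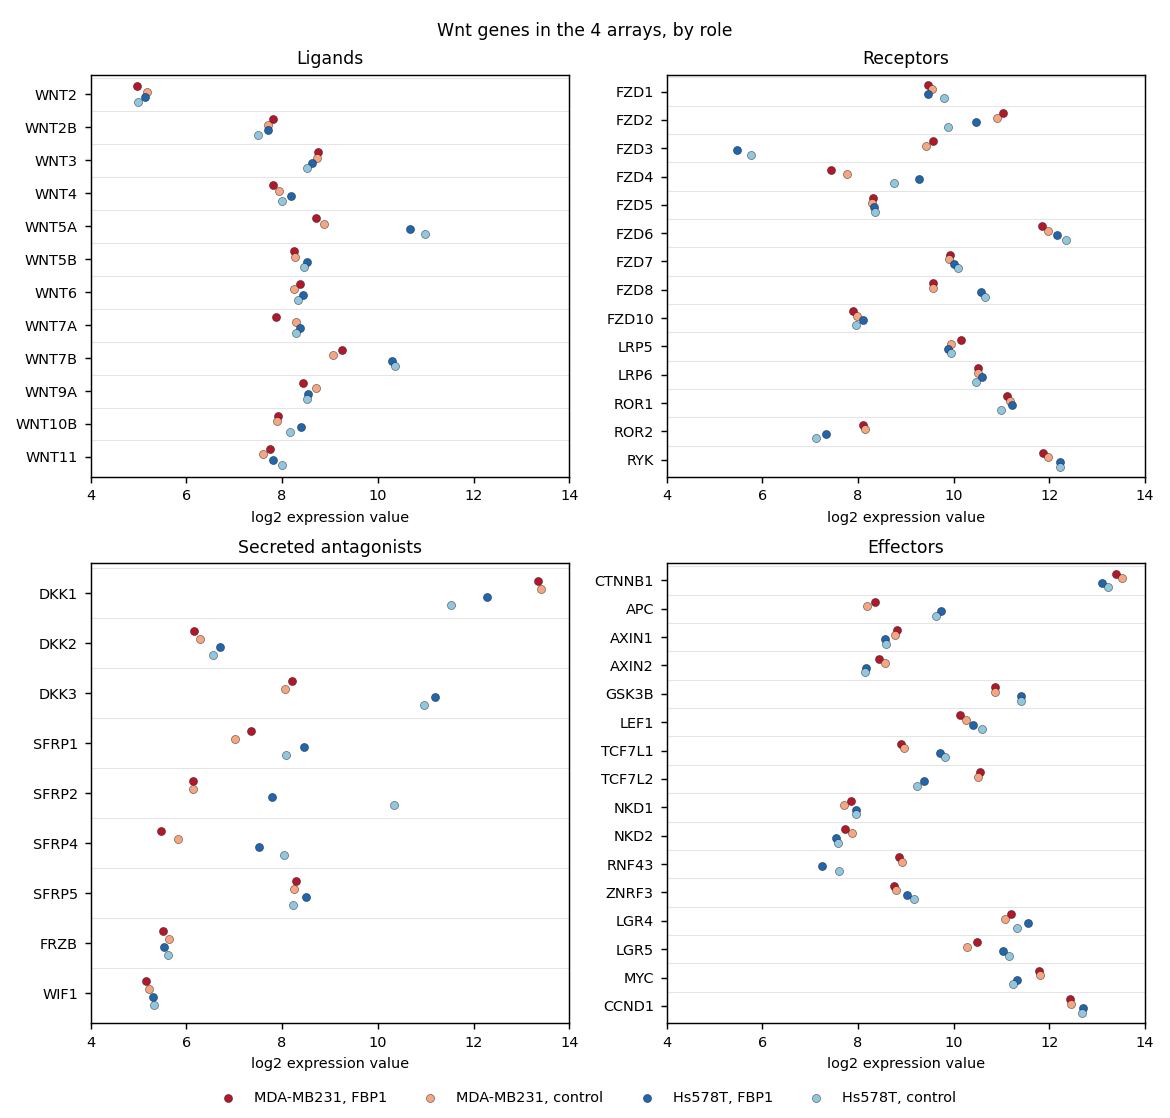
Levels of the 51 Wnt genes, by role, on the log2 scale (horizontal axis), with 1 point per array and a row per gene. Points are compared along a row only. SFRP2 in Hs578T stands at 7.78 with FBP1 and 10.34 in the control, while both MDA-MB231 arrays lie at 6.13 to 6.14.

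The first question was which Wnt genes differed between FBP1-expressing and control Hs578T cells. SFRP2 was lower with FBP1, and DKK1 and the Frizzled receptor gene FZD2 were higher. The other 48 members lay within 1.5-fold of the control, among them all 12 ligands and all 16 measured effectors. Thus 2 of 51 members were at least 1.5-fold higher, against 1.40% of all genes, and 1 was at least 1.5-fold lower, against 1.57%. The members' median change was 0.02 log2, and that of all genes 0.03. Within 1.2-fold lay 41 of 51 members (80.4%), against 80.8% of all genes, so the share of members near control was close to that of the whole array.

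SFRP2 (probe set 8103254) had a level of 7.78 log2 in Hs578T cells with FBP1, against 10.34 in Hs578T control cells. This is a change of −2.56 log2, or 0.17 times the control. In MDA-MB231 its level was 6.13 with FBP1 and 6.14 in the control, just below the 25th percentile in both arrays. The decrease was thus measured in the line whose control array was bright for this gene. Where the gene was this dim, a decrease could hardly be measured.

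SFRP4, another secreted Frizzled-related protein, stood at 7.52 log2 with FBP1 and 8.04 in the control in Hs578T, a change of −0.52. In MDA-MB231 it stood at 5.48 with FBP1 and 5.82 in the control, a change of −0.34, with both arrays below the 25th percentile. SFRP1 was higher in both lines, at 8.46 with FBP1 and 8.08 in the control in Hs578T, and at 7.36 with FBP1 and 7.02 in the control in MDA-MB231. Changes within the SFRP family therefore differed in sign. SFRP5 had changes of 0.26 in Hs578T and 0.04 in MDA-MB231. FRZB, also called sFRP3, had changes of −0.09 and −0.12 in these lines and was below the 25th percentile in all 4 arrays, as was the Wnt-binding WIF1.

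DKK1 (probe set 7927631), an antagonist that removes LRP co-receptors from signalling and is itself a known target of beta-catenin, had a level of 12.29 log2 with FBP1, against 11.53 in the control, in Hs578T. The change of 0.77 log2 is 1.70-fold. In MDA-MB231 the level was 13.34 with FBP1 and 13.40 in the control, a change of −0.06. Hs578T with FBP1 thus stood between its own control and the MDA-MB231 arrays. DKK3, a divergent member of the family, had changes of 0.24 in Hs578T and 0.16 in MDA-MB231, and DKK2 had changes of 0.16 and −0.13 in the same order. A second, dimmer DKK3 probe set had a change of −0.13 in Hs578T, so that the direction for DKK3 in that line depends on the probe set.

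Among the receptors, FZD2 (probe set 8007637) was at 10.47 log2 with FBP1 and 9.88 in the control in Hs578T, and at 11.03 with FBP1 and 10.91 in the control in MDA-MB231. Its Hs578T change of 0.59 lies just past 1.5-fold. Centring each array on its median moved it just short of that, to 0.58. FZD4, the receptor of norrin as well as of Wnt ligands, lay just short of 1.5-fold, at 9.28 with FBP1 and 8.74 in the control in Hs578T, a change of 0.54. In MDA-MB231 the same gene was at 7.44 with FBP1 and 7.77 in the control, a change of −0.33. The changes of FZD4 thus had opposite signs in the lines, a difference that 1 array per group could not test.

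FZD1 was at 9.47 log2 with FBP1 and 9.79 in the control in Hs578T, a change of −0.31, and its MDA-MB231 change was −0.09. FZD3 had changes of −0.28 in Hs578T, where both of its levels were below the 25th percentile, and 0.16 in MDA-MB231. For FZD6 the changes were −0.19 and −0.12 in these lines. The co-receptor genes LRP5 and LRP6 had Hs578T changes of −0.07 and 0.13, and MDA-MB231 changes of 0.21 and 0.00. ROR1, ROR2 and RYK, receptors of beta-catenin-independent signalling, had Hs578T changes of 0.23, 0.21 and 0.00. Besides FZD2 and FZD4, receptor changes in Hs578T ran no higher than that of ROR1 and no lower than that of FZD1.

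Of the ligands, WNT5A, which mainly signals without beta-catenin, had the lowest Hs578T change. Its level was 10.67 log2 with FBP1 and 10.99 in the control, a change of −0.32, and in MDA-MB231 it was 8.71 with FBP1 and 8.87 in the control. WNT10B and WNT2B, both of which can act through beta-catenin, had Hs578T changes of 0.23 and 0.22. In that line 9 of 12 ligands lay above their control and 3 below, within a range of −0.32 to 0.23. A direction without a size or a test is no call, and 10280 of all 18417 genes were above control in the same arrays.

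By role, effectors had the largest share within 1.2-fold of the control in both lines, a lead that rests on few genes. In MDA-MB231 16 of 16 lay within it, against 92.9% of receptors and 90.5% of all genes. In Hs578T 15 of 16 did (93.8%), against 91.7% of ligands and 80.8% of all genes. The exception was RNF43, a ubiquitin ligase that removes Frizzled receptors from the cell surface, at 7.26 log2 with FBP1 and 7.60 in the control in Hs578T, a change of −0.35. CTNNB1, which encodes beta-catenin, had changes of −0.14 in Hs578T and −0.12 in MDA-MB231. The destruction complex genes APC, AXIN1 and GSK3B had Hs578T changes of 0.11, −0.02 and 0.02.

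Of the genes that read out pathway activity in many tissues, AXIN2, LEF1, MYC and CCND1 were also close to control in Hs578T. Of the 23 further target genes described below, 15 (65.2%) lay within 1.2-fold there, against 80.8% of all genes. AXIN2, a feedback inhibitor and a common reporter of beta-catenin signalling, was at 8.17 log2 with FBP1 and 8.15 in the control. LEF1, a nuclear partner of beta-catenin and itself a target in many cells, was at 10.40 with FBP1 and 10.58 in the control. The Hs578T changes of the target genes MYC and CCND1 were 0.08 and 0.02. TCF7L1 and TCF7L2, the other nuclear factors measured, had changes of −0.10 and 0.14. NKD1, NKD2 and ZNRF3, which restrain the pathway, had changes of 0.01, −0.06 and −0.13. The R-spondin receptor genes LGR4 and LGR5 had changes of 0.23 and −0.12.

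**Figure D2:**
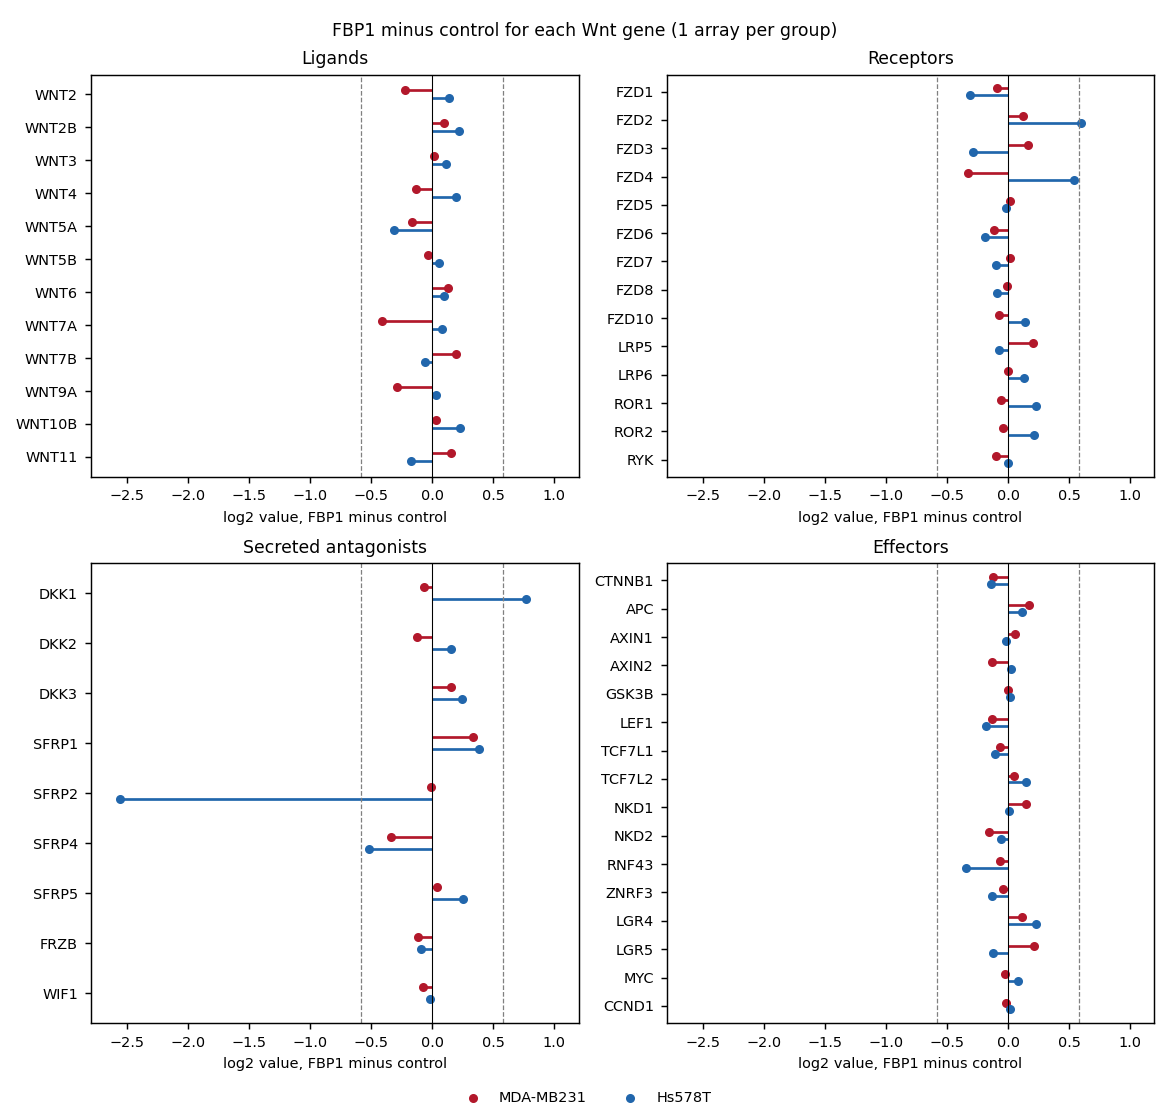
Change with FBP1 (level with FBP1 minus level in control, log2, horizontal axis) of each Wnt gene in MDA-MB231 and Hs578T, by role. Dashed lines mark 1.5-fold (0.585 log2), and SFRP2, DKK1 and FZD2 in Hs578T lie beyond them.

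The same comparison in MDA-MB231 gave smaller differences. Of 51 members, 0 were at least 1.5-fold higher, against 0.353% of all genes, and 0 were at least 1.5-fold lower, against 0.337%. Shares this low leave little room for a list of this length to hold such a gene. The members' changes ran from −0.41 in WNT7A to 0.33 in SFRP1, with a median of −0.02, against 0.00 for all genes. Within 1.2-fold lay 46 of 51 (90.2%), against 90.5% of all genes.

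WNT7A, a ligand of epithelial tissues, was at 7.88 log2 with FBP1 and 8.29 in the control in MDA-MB231, and at 8.38 with FBP1 and 8.30 in the control in Hs578T. The MDA-MB231 array with FBP1 was the low one, and the other arrays lay at 8.29 to 8.38. WNT9A had a change of −0.29 in MDA-MB231, and the other ligands in that line lay between −0.22 in WNT2, which was dim in all 4 arrays, and 0.19 in WNT7B. Among effectors the range was −0.16 in NKD2 to 0.21 in LGR5. AXIN2, LEF1, MYC and CCND1 had MDA-MB231 changes of −0.13, −0.13, −0.02 and −0.02.

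With both lines fitted together in limma, the cell lines serve as the replication. The fit called 0 of 51 members and 0% of all 18417 genes at an adjusted p under 0.05. At an unadjusted value under that threshold were 4 members (7.84%) and 966 of all genes (5.25%). The 4 were SFRP1, SFRP2, SFRP4 and FZD2. Their mean changes over the lines were 0.36 (SE 0.10), −1.28 (SE 0.53), −0.43 (SE 0.11) and 0.36 (SE 0.13), each with an adjusted p of 0.936. FBP1, the introduced gene, had the same adjusted p, so that 0 calls do not show that no member changed. SFRP1 and SFRP4 were the members of the 4 whose lines had changes of similar size.

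Across the 51 members, changes in the lines had a Pearson correlation of 0.07, and of 0.15 without SFRP2. Over all genes it was 0.06, and 0.03 without the introduced gene FBP1. The lines share no array, but genes are not independent replicates and these values only describe the arrays. In 27 of 51 members (52.9%) both lines had the same sign, against 51.2% of all genes.

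Cell line was the larger difference. Limma called 26 of 51 members (50.98%) between MDA-MB231 and Hs578T at an adjusted p under 0.05, against 36.0% of all genes. Of these, 8 were higher in MDA-MB231, against 19.0% of all genes, and 18 were higher in Hs578T, against 16.9%. By role the calls numbered 3 of 12 ligands, 7 of 14 receptors, 6 of 9 antagonists and 10 of 16 effectors. The line difference had the same sign in the FBP1 and control arrays for 44 of 51 members, and for all 26 called ones. A member with opposite signs could not be called in this fit, so the count among called members was fixed in advance. The p-values rest on 2 arrays per line, which differ in construct, and on 1 residual degree of freedom with a prior of 5.09. That residual is how far the FBP1 change differs between the lines, and the prior is drawn from all genes. The p-values therefore do not measure the spread between repeated cultures.

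**Figure D3:**
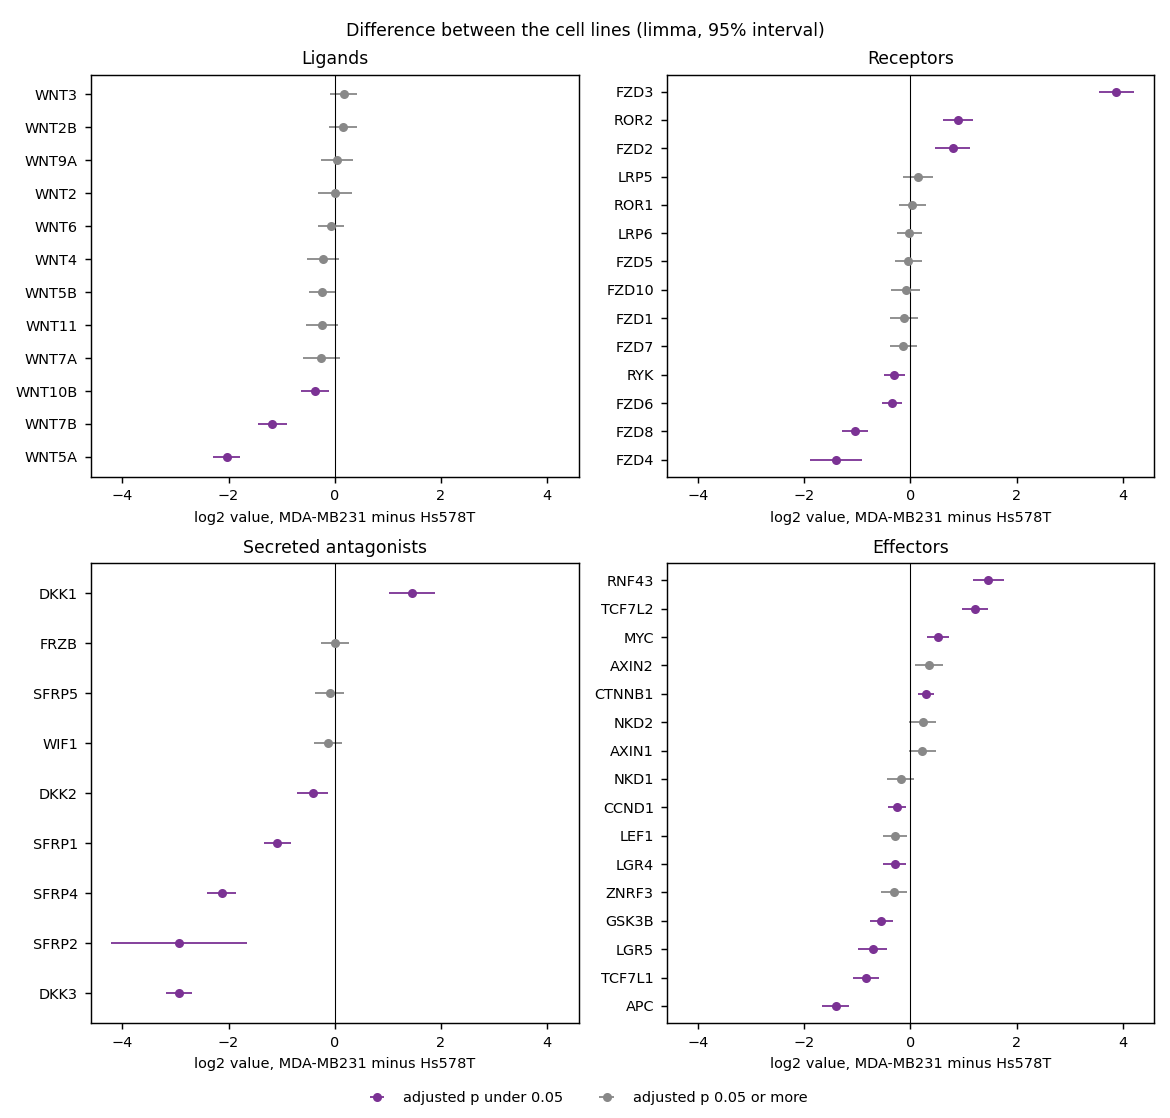
Difference in level between the lines (MDA-MB231 minus Hs578T, log2, horizontal axis) for each Wnt gene, by role, with 95% intervals from the limma fit on all 4 arrays. Purple points were called at an adjusted p under 0.05, and FZD3 at 3.88 and DKK3 at −2.94 lie near the ends of the range.

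FZD3 (probe set 8145611) was the receptor that set the lines apart most. Its level was 9.58 log2 with FBP1 and 9.41 in the control in MDA-MB231, and 5.47 with FBP1 and 5.76 in the control in Hs578T. The difference of 3.88 log2 (SE 0.14, adjusted p = 1.25e-05 by limma) favours MDA-MB231, and both Hs578T arrays were below the 25th percentile. FZD2 and the WNT5A receptor gene ROR2 were also higher in MDA-MB231, by 0.80 (SE 0.13) and 0.90 (SE 0.11), with adjusted p = 0.00538 and 0.00182. FZD4 and FZD8 were higher in Hs578T, with differences of −1.40 (SE 0.20) and −1.04 (SE 0.10) and adjusted p = 0.00307 and 0.000567. FZD6 and RYK were called with smaller differences, −0.35 and −0.30, also higher in Hs578T.

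Receptors that were not called had 95% intervals that included 0. LRP6 differed by −0.02 log2 (95% interval −0.26 to 0.22), LRP5 by 0.14 (−0.14 to 0.42) and ROR1 by 0.04 (−0.22 to 0.29). FZD5, FZD7, FZD1 and FZD10 differed by −0.04, −0.13, −0.12 and −0.09. A difference of 1.5-fold lies outside the intervals of all of these 7 receptors. The intervals rest on 1 residual degree of freedom with a prior of 5.09 and hold no spread between repeated cultures. They therefore do not show that the lines are alike. The 25 members not called ran from −0.31 to 0.34, and AXIN2, at 0.34 (SE 0.11, adjusted p = 0.051), came closest to the threshold, followed by LEF1 (adjusted p = 0.0588) and ZNRF3 (0.0636). With dim genes left out, AXIN2 passed (adjusted p = 0.044).

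Ligands split less. WNT5A was higher in Hs578T by 4.10-fold, with levels of 8.71 and 8.87 log2 in MDA-MB231 with FBP1 and control, against 10.67 and 10.99 in Hs578T with FBP1 and control. The difference was −2.04 (SE 0.10, adjusted p = 4.96e-05). WNT7B, at 9.25 and 9.06 in MDA-MB231 and 10.30 and 10.36 in Hs578T, FBP1 array first in each line, differed by −1.18 (SE 0.11, adjusted p = 0.000574). WNT10B was called at −0.37 (SE 0.11, adjusted p = 0.0444). The other 9 ligands, WNT2, WNT2B, WNT3, WNT4, WNT5B, WNT6, WNT7A, WNT9A and WNT11, were not called and differed by −0.25 to 0.17.

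Secreted antagonists differed most in size between the lines, with a median absolute difference of 1.08 log2, against 0.23 for ligands, 0.22 for receptors, 0.33 for effectors and 0.22 for all genes. DKK3 (probe set 7946661) was at 8.22 log2 with FBP1 and 8.06 in the control in MDA-MB231, and at 11.20 with FBP1 and 10.96 in the control in Hs578T. That is 7.67-fold higher in Hs578T (difference −2.94, SE 0.10, adjusted p = 1.15e-05). The second DKK3 probe set, at 6.19 to 6.47, differed by −0.19 and did not show this size.

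SFRP1, SFRP2 and SFRP4 were all higher in Hs578T. Their differences were −1.08 (SE 0.10, adjusted p = 0.000585), −2.92 (SE 0.53, adjusted p = 0.00703) and −2.13 (SE 0.11, adjusted p = 5.17e-05). The large error of SFRP2 holds its change with FBP1 in Hs578T, since the difference was −1.65 between the FBP1 arrays and −4.20 between the control arrays. DKK2 was called at −0.41 (SE 0.12, adjusted p = 0.0387). DKK1 ran the other way, higher in MDA-MB231 by 1.46 (SE 0.18, adjusted p = 0.00164), with 1.05 between the FBP1 arrays and 1.87 between the control arrays. For both SFRP2 and DKK1 the gap between lines was thus narrower in the FBP1 arrays. The FZD4 gap was wider there, at −1.84 between FBP1 arrays and −0.97 between control arrays.

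Among effectors, APC was higher in Hs578T by 2.65-fold. Its levels were 8.35 and 8.18 log2 in MDA-MB231 with FBP1 and control, against 9.73 and 9.62 in Hs578T with FBP1 and control (difference −1.41, SE 0.10, adjusted p = 0.000205). RNF43 and the nuclear factor gene TCF7L2 were higher in MDA-MB231, by 1.47 (SE 0.12, adjusted p = 0.00029) and 1.22 (SE 0.10, adjusted p = 0.000327). TCF7L1, often a repressor of targets, ran the opposite way at −0.84 (SE 0.10, adjusted p = 0.00149). The lines therefore differed in which TCF7L gene was at its higher level.

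LGR5 (−0.71), GSK3B (−0.55), LGR4 (−0.30) and CCND1 (−0.26) were called higher in Hs578T, and MYC (0.51) and CTNNB1 (0.29) were called higher in MDA-MB231. With a variance prior without intensity trend, LGR4, CCND1, CTNNB1 and the receptor RYK lost their calls, at adjusted p = 0.0667, 0.0918, 0.0645 and 0.0643, and AXIN2 gained one at 0.0477. AXIN1, AXIN2, LEF1, NKD1, NKD2 and ZNRF3 were not called in the main setting. Of the usual target genes, MYC and CCND1 thus differed in opposite directions between the lines, and AXIN2 and LEF1, at 0.34 and −0.29, fell short of the threshold.

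A second list held 60 further genes named with the pathway, of which 58 were measured. In Hs578T 0 of them were 1.5-fold higher, against 1.40% of all genes, and 0 were lower, against 1.57%. In MDA-MB231 0 were 1.5-fold lower, against 0.337% of all genes, and 1 was higher (1.72%, against 0.353%). This share rests on the 1 gene, TLE4, a Groucho-family co-repressor of TCF/LEF factors. TLE4 was at 6.998 log2 with FBP1 and 6.01 in the control in MDA-MB231, and at 10.65 with FBP1 and 10.70 in the control in Hs578T. It was thus below the 25th percentile in the MDA-MB231 control and bright in Hs578T.

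The next largest changes on this list were in Hs578T. WNT8A and WNT8B, both ligands, had changes of 0.52 and 0.36, the APC-binding AMER1 had 0.41, and KREMEN1, a receptor for DKK proteins, had −0.46. LGR6, another R-spondin receptor, had 0.43 in Hs578T and 0.34 in MDA-MB231. Limma called 19 of the 58 between lines (32.8%, against 36.0% of all genes). Of these, 10 were higher in MDA-MB231 (17.2%, against 19.0%) and 9 in Hs578T (15.5%, against 16.9%). TLE4 (−4.17, adjusted p = 7.26e-05), the tankyrase gene TNKS (−1.26), the trophoblast glycoprotein gene TPBG (−0.70), SMO (−0.57) and the Wnt secretion factor gene WLS (−0.54) were higher in Hs578T. SMO is related to the Frizzled receptors but acts in Hedgehog signalling. The beta-catenin cofactor gene BCL9 (1.03), TLE3 (0.82) and the cadherin gene CELSR1 (0.67) were higher in MDA-MB231.

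A further list held 24 genes described as beta-catenin targets, most of which also answer to other pathways, and 23 were measured. In Hs578T 0 were 1.5-fold higher, against 1.40% of all genes, and 2 were 1.5-fold lower (8.70%, against 1.57%), NRCAM and ID2. The cell adhesion gene NRCAM was at 6.02 log2 with FBP1 and 7.31 in the control there, a change of −1.29. ID2, an inhibitor of helix-loop-helix factors that also responds to BMP signals, was at 10.61 with FBP1 and 11.85 in the control, a change of −1.25. Their MDA-MB231 changes were 0.00 and −0.26. The list's median change in Hs578T was 0.04, with 12 of 23 above control, so most of the list did not follow these 2 genes.

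BMP4, a BMP ligand, lay just short of 1.5-fold at 9.78 log2 with FBP1 and 9.23 in the control in Hs578T, and had a change of −0.29 in MDA-MB231. BAMBI, a decoy receptor of the TGF-beta family, had changes of −0.44 in Hs578T and 0.07 in MDA-MB231, TIAM1 had 0.36 and −0.24, and EPHB3 had −0.08 and −0.35. In MDA-MB231 0 of the 23 passed 1.5-fold in either direction, against 0.353% of all genes higher and 0.337% lower. Between lines limma called 14 of 23 (60.9%), against 36.0% of all genes, with BMP4 (2.60), NRCAM (1.86), PROX1 (0.98) and VEGFA (0.69) higher in MDA-MB231 and ID2 (−1.91), TNFRSF19 (−1.19), JAG1 (−0.87) and BAMBI (−0.69) higher in Hs578T.

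**Figure D4:**
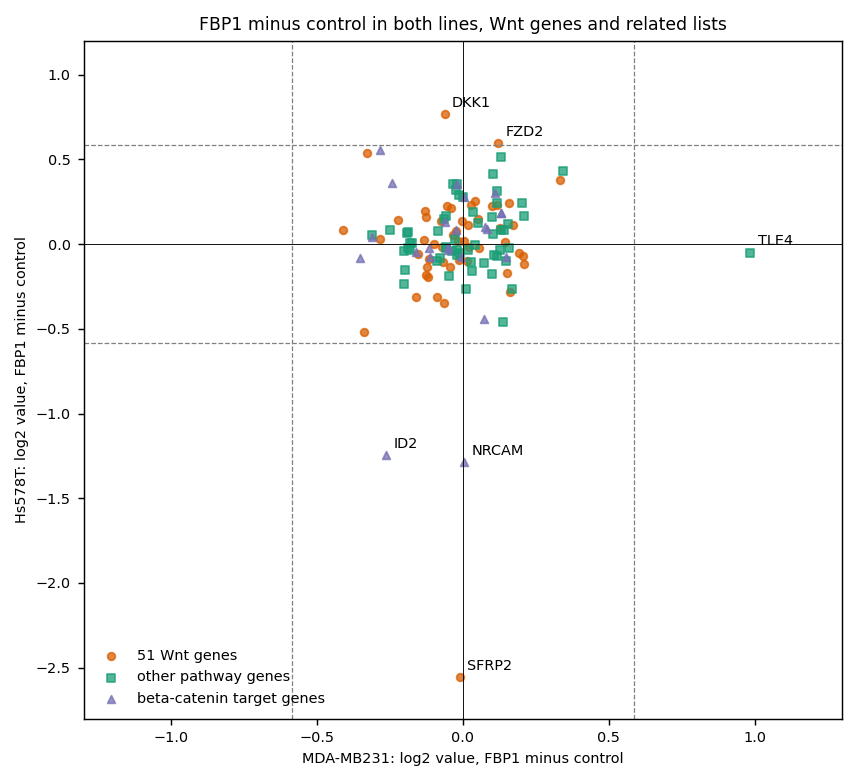
Change with FBP1 in MDA-MB231 (horizontal axis) and in Hs578T (vertical axis), both log2, for the 51 Wnt genes, the 58 other pathway genes and the 23 beta-catenin target genes. Dashed lines mark 1.5-fold; the labelled genes pass it in a line, and no gene passes it in both.

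Markers of other cell types were read in the same arrays, because SFRP2 and SFRP4 are typical of fibroblasts. Of 10 mesenchymal or fibroblast markers, 9 lay within 1.5-fold in Hs578T, and FAP was lower, at 6.67 log2 with FBP1 and 8.01 in the control. THY1, COL1A1, COL1A2 and PDGFRB had changes of 0.08, 0.04, −0.27 and −0.30. On the linear scale the 10 markers summed to 60535 in Hs578T with FBP1 and 61621 in its control, and to 26395 in MDA-MB231 with FBP1 and 25747 in its control. The sum adds probe sets of different brightness and is weighted to the brightest, which in Hs578T were FN1, VIM and CDH2. The part of fibroblast-like expression in the SFRP2 change was not tested. Between lines 8 of the 10 markers were called higher in Hs578T (80.0%, against 16.9% of all genes). Of the 51 Wnt members, 18 were called higher in Hs578T, SFRP1, SFRP2, SFRP4, DKK3 and WNT5A among them. Another 8 members, DKK1 and FZD3 among them, were called higher in MDA-MB231. A link between the markers and these members was not tested.

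In bulk RNA, fewer cells with a transcript and less transcript per cell cannot be told apart. Of 9 luminal markers, 0 passed 1.5-fold in either line. Their sums were 8888 in Hs578T with FBP1 and 7115 in its control, and 20674 in MDA-MB231 with FBP1 and 21694 in its control. These sums are also weighted to the brightest probe sets. In Hs578T that was KRT18, at 12.71 log2 with FBP1 and 12.33 in the control. Only 4 of 8 basal markers were measured, and KRT14 had a change of 0.77 in Hs578T, the same size as DKK1. The 4 measured leukocyte and the 4 endothelial markers had 0 members past 1.5-fold in either line. Of all genes, 0.353% were 1.5-fold higher and 0.337% lower in MDA-MB231, and 1.40% and 1.57% in Hs578T.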

How the data were processed

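RNA from MDA-MB231 and Hs578T cells, with FBP1 or as controls, was measured on Affymetrix arrays, 1 array per group. The authors deposited 1 log2 value per array for each of 33297 probe sets, made with Affymetrix Expression Console 1.1.2800.28061 per the submitters' processing notes. Their normalization is not stated there. That the scale is log2 was judged from the range, 2.40 to 14.81. If the arrays were scaled alike, a shift in the whole RNA content of a cell cannot be seen.

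The platform annotation gave the gene names: 19460 had 1 gene, 1754 several and 12083 none. For each of 18417 genes the single-gene probe set with the highest mean was used, with no intensity filter. All genes were fitted with limma 3.58.1 (R 4.3.3), using cell line and construct as terms and a trended variance prior, and p-values were Benjamini-Hochberg adjusted over all genes. Each FBP1 array is paired with the control of its line through the cell line term. The fit was tested on simulated data in which an added change was the same in both lines, so the simulation does not cover changes that differ between them. The interaction of line and construct has no residual degrees of freedom and was not tested.

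The members, lists and rules were chosen with earlier results of these data known. Named were members past 1.5-fold in a line or called at 2 log2 between lines, up to 3 more per role, and in the other lists up to 6 by change and 8 by line difference; the rest are given by value or range. Marker genes were picked for naming after their values were seen. Protein sequences were not used here.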

Additional observations from a re-analysis of the deposited data

Results flagged for a closer look

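FZD4 was flagged because its change with FBP1 had opposite signs in the lines and was at least 0.32 log2 in each. MDA-MB231 had a change of −0.33 log2 and Hs578T one of 0.54, a difference of −0.87 (MDA-MB231 minus Hs578T). With 1 array per group the difference was not tested. Opposite signs below that size were not flagged. The limit of 0.32 log2 is a chosen size, since 1 array per group gives no measure of noise. Passing it does not show that FZD4 differs by more than noise.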

How the results depend on the processing

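The counts of members past 1.5-fold depended mainly on the size rule. At a wider limit of 0.32 log2, 1 member was higher and 3 were lower in MDA-MB231, and 4 were higher and 3 were lower in Hs578T. At 2-fold, 0 were higher in Hs578T, and SFRP2 was still lower. Centring each array on its median left 1 higher there, because FZD2 fell just short. The other count alternatives stayed within 1.5 times the main count: leaving out dim genes, quantile normalization, averaging probe sets, the variance prior without trend and, between lines, leaving out the construct, which gave 8 to 9 members higher in MDA-MB231 and 15 to 18 higher in Hs578T. The fit over both lines called 0 members under each, including without the cell line as the block that pairs the arrays. Of 414 single-gene alternatives, 395 kept their direction and side of the threshold, or moved by less than the residual SD. None of the called ones reversed. Much of this tally was fixed in advance. Leaving out dim genes, the prior without trend or leaving out a term could not move a log2 difference, and averaging probe sets could move only DKK3. In the fit over both lines no member was called in any setting. Between lines, LGR4 also lost its call without the construct (adjusted p = 0.0719), where AXIN2 gained one (0.0381). The DKK3 change in Hs578T was 0.06 with its probe sets averaged. Levels near or below 6.16 log2, as for WNT2, FRZB, WIF1, SFRP2 in MDA-MB231 and FZD3 in Hs578T, limit what a change or fold can show there. No array could be left out of a group, since each group has 1.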
